A study of Mus musculus with 35 samples.

Results

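Lyz2, Ctss, Gm2a and Retnla are 4 mouse genes named for macrophages or lysosomes, and they were followed here across sympathetic ganglia and tumors of the TH-MYCN neuroblastoma model. They were chosen by symbol, with earlier results of these data known. Each had 1 probe, so the members were 4 of the 12688 probes in the authors' normalized ganglia table (4 of 7803 genes named by a single symbol) and 4 of the 33012 probes in the table of all arrays. Lyz2 stood there under its older symbol Lyzs. All mice were homozygous for the TH-MYCN transgene, in which the tyrosine hydroxylase promoter drives human MYCN in cells of the sympathetic lineage, and no mouse without it was arrayed. RNA came from 10 µm frozen sections and was read on single-colour oligonucleotide arrays, with 1 array per specimen in each of 2 sets. Set 1 held 24 tumors caught by ultrasound in 4 size classes, with 6 small (0.05 to 0.1 g), 6 medium (0.24 to 0.46 g), 6 large (0.76 to 1.30 g) and 6 very large tumors (1.60 to 3.00 g). Set 2 held ganglia with neuroblast hyperplasia from day 0 (n = 5), day 7 (n = 2) and day 14 (n = 2) of life and 2 small tumors, which by their specimen names are small replicates 6 and 3 of set 1. Ages at death in set 1 ran from 28 to 46 days.

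Macrophages engulf debris and degrade it in lysosomes, acidic organelles filled with hydrolases. They clear dying cells in many tissues and are known immune cells of neuroblastoma stroma. Lyz2 encodes the lysozyme of mouse macrophages and granulocytes, which cleaves bacterial cell walls. Ctss encodes cathepsin S, a cysteine protease of antigen-presenting cells that trims the invariant chain of MHC class II. Gm2a encodes the GM2 activator, a small lipid-binding protein that presents the ganglioside GM2 to the lysosomal enzyme that degrades it, and it is made by many cell types. Retnla encodes a secreted resistin-like protein, known in mice as a marker of alternatively activated macrophages and also made by white adipose tissue.

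The 250 bases before the annotated start of each member are shown as a description. Whether their letters bear on the members' levels was not tested. All 4 had an entry in RefSeq's promoter table (GRCm38.p6), at chr10:117282273-117282522, minus strand for Lyz2, chr3:95526536-95526785, plus strand for Ctss, chr11:55097735-55097984, plus strand for Gm2a and chr16:48842359-48842608, plus strand for Retnla, each window ending at the base before the gene. Capitals mark matches on either strand to GGAAGT, the core bound by ETS factors such as PU.1, to the STAT motif, which is TTC and GAA with any 4 bases between, to the TATA box TATAAA and to the GC box GGGCGG.
Lyz2: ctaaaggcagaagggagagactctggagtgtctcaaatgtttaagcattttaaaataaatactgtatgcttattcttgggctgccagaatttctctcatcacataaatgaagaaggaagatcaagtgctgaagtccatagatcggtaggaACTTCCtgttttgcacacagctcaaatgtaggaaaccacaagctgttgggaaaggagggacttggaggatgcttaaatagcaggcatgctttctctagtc
Ctss: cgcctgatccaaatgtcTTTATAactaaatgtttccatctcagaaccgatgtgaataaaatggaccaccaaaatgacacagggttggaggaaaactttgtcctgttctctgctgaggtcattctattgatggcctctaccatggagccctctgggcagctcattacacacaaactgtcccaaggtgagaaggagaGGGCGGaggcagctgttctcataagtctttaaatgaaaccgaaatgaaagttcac
Gm2a: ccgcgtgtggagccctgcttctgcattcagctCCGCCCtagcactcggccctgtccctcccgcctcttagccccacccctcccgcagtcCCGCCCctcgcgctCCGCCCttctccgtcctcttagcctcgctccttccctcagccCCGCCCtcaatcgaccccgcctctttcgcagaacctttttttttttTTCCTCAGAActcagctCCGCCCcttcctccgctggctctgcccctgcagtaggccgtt
Retnla: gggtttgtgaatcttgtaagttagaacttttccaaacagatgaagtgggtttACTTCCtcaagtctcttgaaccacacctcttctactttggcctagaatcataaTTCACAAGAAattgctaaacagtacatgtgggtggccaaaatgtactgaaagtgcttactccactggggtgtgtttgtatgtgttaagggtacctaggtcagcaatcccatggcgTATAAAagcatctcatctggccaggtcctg
GC content was 41.6% in the window of Lyz2, 44.8% for Ctss, 42.8% for Retnla and 65.2% for Gm2a. The window of Gm2a held 5 GC boxes and no TATAAA, and that of Retnla held TATAAA from base -30 and no GC box. That of Ctss held both, 1 GC box from base -55 and 1 TATAAA on the minus strand from base -233. The window of Lyz2 held neither. GGAAGT occurred once each in Lyz2 (from base -100) and Retnla (from base -198), where it lies inside the longer PU.1 motif GAGGAAGT. The STAT motif occurred once each in Retnla (from base -145) and Gm2a (from base -59). Of 32851 windows of this length, 19.7% held GGAAGT, 2.44% GAGGAAGT, 5.85% the STAT motif, 12.4% TATAAA and 32.7% GGGCGG. The E-box CACGTG (6.02% of windows) and the AP-1 motif TGANTCA (6.75%) had no match in the 4 windows. These motifs were picked with the letters already seen, and a match is a description of letters. The spans of Lyz2 and its paralog Lyz1 lie 5523 bases apart on chromosome 10, and 60.8% of the bases of their windows were the same without gaps. Lyz1 had no probe of its own name here, and the sources do not state whether the Lyz2 probe also reads Lyz1 transcripts.

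Levels in set 2 are the authors' quantile normalized intensities, and levels in set 1 are intensities of the series table after quantile normalization here. The median probe of an array read 558 to 1292 units in set 1 and 656 to 1514 in set 2 of the unscaled series table. Th, the first enzyme of catecholamine synthesis, stood between the 95.4th and the 99.97th percentile of its array in all 35 arrays. Mycn, whose probe may or may not read the human transgene, had a log2 level of 17.38 ± 0.63 (SD, n = 5) at day 0 and 13.37 ± 0.06 (n = 2) in the tumors of set 2. Precision is limited by how few arrays a group holds, as few as 2 in set 2. Separate animals are known only through specimen names, so the spread between arrays may be partly technical.

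The arrays that share a tumor between the sets did not give the same profile, and every comparison of set 2 tumors rests on them. Across 32996 probes the unnormalized log2 intensities of the array labelled small replicate 3 correlated between the sets with r = 0.890, and those of replicate 6 with r = 0.884. Each tumor array of set 2 was as close to the other tumor of set 1 (r = 0.881 and 0.890), whereas the pair within set 1 had r = 0.962 and the pair within set 2 had r = 0.963. The 8 measured skeletal muscle genes of replicate 3 had a median percentile of 60.0 in set 1 and 95.7 in set 2. For replicate 6 it was 97.6 and 96.3. For the 9 measured adipocyte genes it was 95.9 and 96.9 for replicate 3, and 97.5 and 96.9 for replicate 6. Gm2a read 7704 in set 1 and 1694 in set 2 for replicate 3, a ratio of 0.220. For replicate 6 it read 8188 and 1189, a ratio of 0.145, which lay below the 5th percentile of all probes. Retnla was 6.70 times as high in set 2 for replicate 3 and 2.00 times for replicate 6. The ratio was 2.11 and 1.81 for Lyz2, and 2.68 and 2.86 for Ctss. Unnormalized, Lyz2, Ctss and Retnla were thus higher and Gm2a lower on both set 2 arrays. The median log2 ratio of all probes was 0.30 for replicate 3 and 0.22 for replicate 6. Lyz2 hardly moved in percentile of its array, from 98.85 to 98.98 for replicate 3 and from 99.05 to 98.98 for replicate 6. A level of a tumor in set 2 is therefore not a level of that tumor in set 1.

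**Figure D1:**
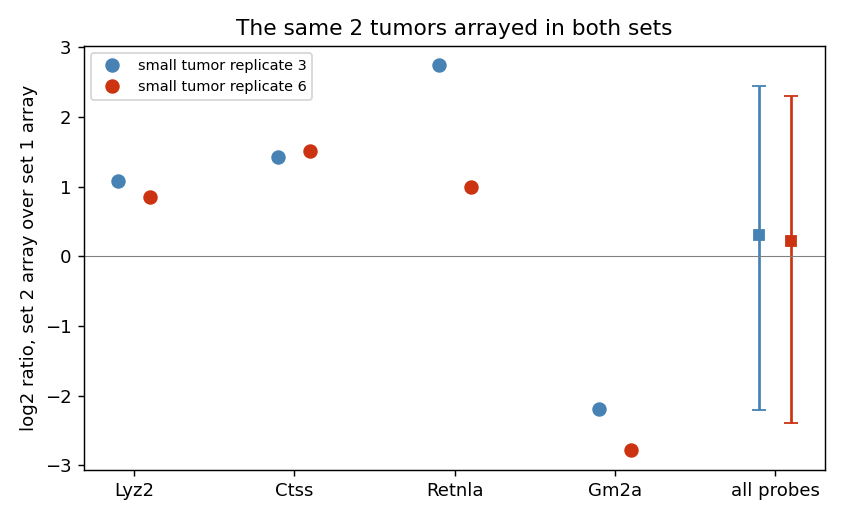
Unnormalized intensity of the same 2 tumors on the set 2 array over the set 1 array (y axis, log2 ratio) for each member, with squares and bars for the median and the 5th to 95th percentile of 32996 probes. Gm2a lies at -2.19 and -2.78, and the other members lie above 0.

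In set 2, Lyz2, Ctss and Retnla were highest in the tumors, while Gm2a and Retnla stood high at day 7. These values are a description with no test, because they were among those known when the members were chosen. At the first ganglion stage Lyz2 read 85915, 115527, 61741, 69943 and 74205 in the 5 day 0 arrays. It read 183812 and 213587 at day 7, 115687 and 106585 at day 14, and 1233325 and 1211393 in the tumors. Both day 7 arrays lay above all day 0 arrays, day 14 overlapped day 0, and both tumors lay above every ganglion. In log2 units the mean level of Lyz2 was 16.28 ± 0.35 (SD, n = 5) at day 0, 17.60 ± 0.15 at day 7, 16.76 ± 0.08 at day 14 and 20.22 ± 0.02 in the tumors (n = 2 each). The tumors were 15.4-fold above day 0, and 3.46 log2 units above day 14.

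For Ctss the 5 day 0 arrays read 56433, 54584, 51998, 55550 and 55567. The later ganglia read 51273 and 45924 at day 7 and 46143 and 30552 at day 14, and the tumors 183159 and 188560. All later ganglia therefore lay below all day 0 arrays, and the tumors above all ganglia. The fall was 0.18 log2 units at day 7 and 0.55 at day 14, where the 2 arrays had an SD of 0.42. Tumors stood 3.39-fold above day 0 and 4.95-fold above day 14.

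Gm2a, the lipid activator, had the narrowest window. It read 1983, 1716, 1984, 1388 and 1964 at day 0, then 13892 and 34926 at day 7, 2640 and 2799 at day 14, and 1757 and 1694 in the tumors. The day 7 pair lay above every other array, at 12.3-fold the day 0 mean, but its own arrays lay far apart (SD 0.94 log2 units). Day 14 lay 1.52-fold above day 0 with no overlap, and the tumors lay within the day 0 range (0.96-fold). Outside day 7 these readings were low, where the median of the authors' values was 18933. Gm2a stood between percentiles 31.47 and 52.43 of its array at day 0 and between 48.85 and 51.87 in the tumors. Every ratio to day 0 therefore rests on low intensities. With the series table quantile normalized here instead, the tumors were 0.30 log2 units above day 0.

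Retnla, the secreted resistin-like protein, read 1798, 1466, 595, 2445 and 2183 at day 0, where the third array lay under the floor of 879 set for low intensities. Its later values were 23999 and 18111 at day 7, 7304 and 5850 at day 14, and 46247 and 38038 in the tumors. The order was day 0, day 14, day 7 and tumor, and no neighbours in it overlapped. Against day 0 the rise was at least 12.6-fold at day 7, 3.95-fold at day 14 and 25.4-fold in the tumors. Between day 7 and the tumors it was 2.01-fold.

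Across the 4 members, 3 lay above all day 0 arrays at day 7, as did 11.3% of the 12688 probes, and 1 lay below them, as did 9.11%. At day 14, 2 lay above all day 0 arrays (15.2% of probes) and 1 below (14.0%). In the tumors 3 lay above all day 0 arrays (24.9% of probes) and 3 above both day 14 arrays (41.4%), with Gm2a below both (37.7%). These counts use the values that were known when members were chosen, so nothing is read from them. In these bulk samples fewer cells of a type and less RNA per cell cannot be told apart.

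**Figure D2:**
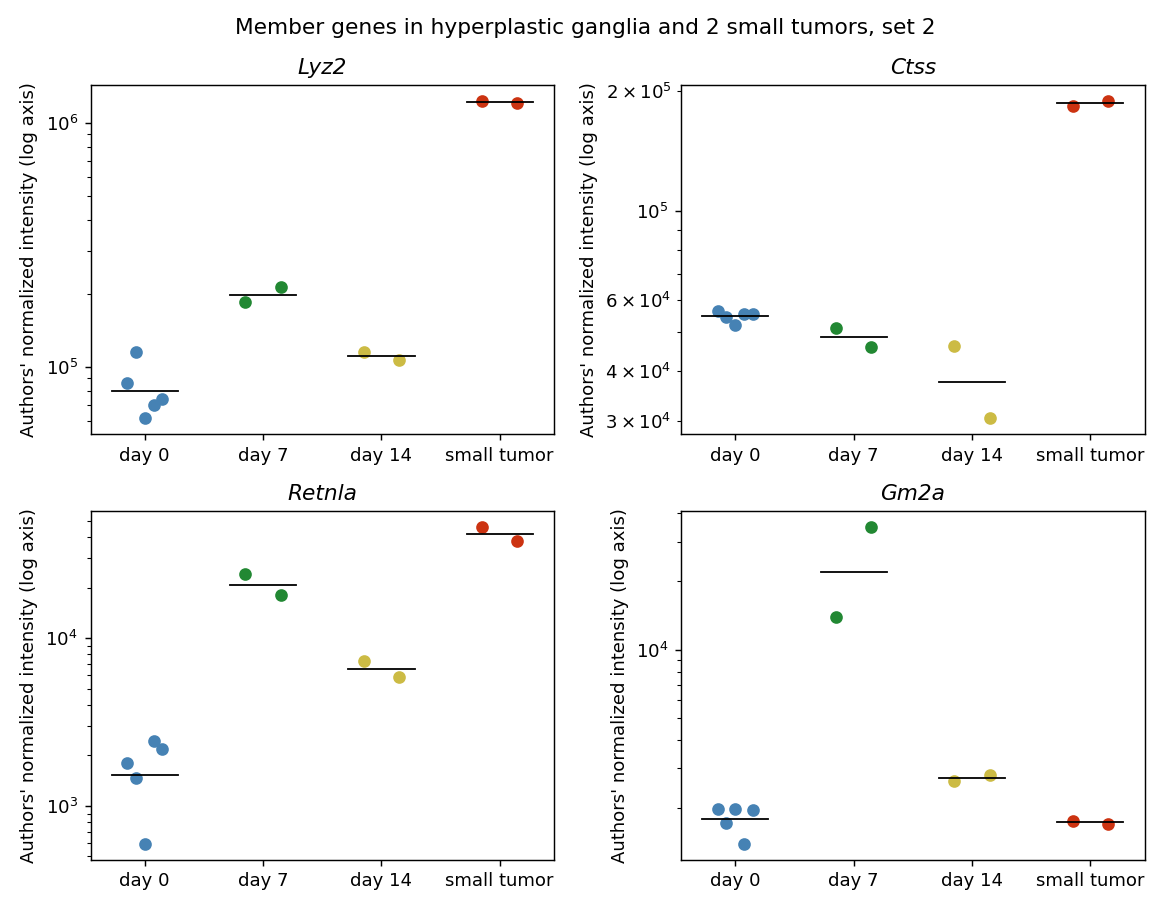
Authors' normalized intensity (y axis, log scale) of each member in ganglia of day 0, 7 and 14 and in the 2 tumors of set 2, 1 point per array, with lines at the means of log2 values. Gm2a peaks at day 7 (13892 and 34926), Retnla has a first peak there (23999 and 18111), and Lyz2 and Ctss are highest in the tumors.

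Other cell types moved in the same arrays. The 9 measured adipocyte genes summed to 309891 to 695060 intensity units at day 0, 749642 to 1182174 at day 7, 841093 to 1233051 at day 14 and 5103554 to 5959890 in the tumors. Tumors against day 0 ganglia had 8 of the 9 higher in limma's test with Benjamini-Hochberg adjustment over all 12688 probes, of which 37.3% were called. Among the 8 were Cfd, the adipocyte protease adipsin, by 6.82 (SE 0.60) and Thrsp, a regulator of lipid synthesis, by 5.70 (SE 0.55). Skeletal muscle genes summed to 887652 to 1539684 at day 0 and 3646496 to 3834934 in the tumors. Of these 8 genes 7 were higher and 1 lower (37.3% of all probes called), with a median change of 4.84 log2 units. Glial genes went the other way: the 8 measured Schwann cell and satellite glia genes summed to 2495853 to 4266450 at day 0, 6535012 to 6690289 at day 14 and 594168 to 621962 in the tumors. The part of these tissues in the members' values was not tested.

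Most other macrophage genes were higher in the set 2 tumors than in day 0 ganglia, and 0 passed at day 7 or day 14 against day 0. Of 42 listed macrophage and monocyte genes 20 were measured, and Fcgr1, Cd68 and Adgre1 were not among them. This and the other gene lists were drawn up with earlier results of these data known. Single list genes are named mainly by their p in these same arrays, so their p-values are not independent of that choice. In tumors against day 0 ganglia 12 of the 20 were higher and 0 lower, with a median change of 1.47 log2 units beside 0.01 over all named genes and 37.3% of all probes called. Against day 14 ganglia 9 were higher and 0 lower (median 1.38 beside -0.02, with 39.7% of probes called). Fcer1g, the signalling chain of Fc receptors, rose by 1.83 (SE 0.25, adjusted p = 0.000115) and C1qc, a chain of complement C1q, by 1.52 (SE 0.23, adjusted p = 0.000245). Fcgr3, a low-affinity IgG receptor, rose by 1.70 (SE 0.28, adjusted p = 0.000399) and Folr2, a folate receptor of resident macrophages, by 1.93 (SE 0.57, adjusted p = 0.0173). Cd163, the haemoglobin scavenger receptor, rose by 1.63 (SE 0.60, adjusted p = 0.0481), whereas Pf4, a platelet and macrophage chemokine, had a change of 0.02 that did not pass. In limma 0 of the 20 passed at day 7 or at day 14 against day 0 (0 and 2 had an unadjusted p under 0.05), where 1.99% and 10.2% of all probes passed. At day 14, 1 was higher with a floor at the 5th percentile and 1 was lower against 3 of the day 0 specimens. With 2 arrays at each later day, a count of 0 does not show that levels stayed the same. Their summed level was 323991 to 631194 at day 0, 344243 to 465693 at day 7, 382672 to 482044 at day 14 and 1082547 to 1092457 in the tumors. The 20 genes also stood higher on the set 2 arrays than on the set 1 arrays of the same 2 tumors. Their median percentile was 69.91 in set 1 and 80.65 in set 2 for small replicate 3, and 75.15 and 82.72 for replicate 6. Without the first or the second tumor array 8 and 9 of the 20 passed against day 0, and Cd163 passed in 3 of 13 alternative fits and Folr2 in 9 of 12.

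Alternative activation, for which Retnla is a marker, had 5 other measured genes. Mgl2, a galactose-binding lectin of macrophages and dendritic cells, rose by 2.33 at day 7 (SE 0.39, adjusted p = 0.0121), 3.31 at day 14 (SE 0.39, adjusted p = 0.000527) and 3.67 in the tumors (SE 0.39, adjusted p = 1.46e-05). The day 7 call of Mgl2 was lost without either day 7 array (adjusted p = 0.137 and 0.109). Retnlg, the resistin-like gene of the same family as Retnla, was 2.16 higher in tumors than at day 0 (SE 0.79, adjusted p = 0.0472), and passed in 3 of 12 alternative fits. Arg1, arginase of alternatively activated macrophages, had changes of 0.04 at day 7, -0.17 at day 14 and -0.03 in the tumors, which did not pass, and neither did those of Il4ra or Ccl17.

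Class II presentation, the pathway of cathepsin S, had 4 measured genes. H2-Eb1, a class II beta chain, rose by 2.23 at day 7 (SE 0.29, adjusted p = 0.00339), 2.56 at day 14 (SE 0.29, adjusted p = 0.000402) and 3.07 in the tumors (SE 0.29, adjusted p = 5.39e-06). Without the second day 7 array its day 7 call was lost (adjusted p = 0.0862). H2-DMa, the alpha chain of the peptide exchange factor, rose by 0.97 at day 14 (adjusted p = 0.0226, past in 8 of 13 alternative fits) and was 0.95 lower in the tumors than at day 0 (change -0.95, SE 0.23, adjusted p = 0.00637). Ctss, H2-Eb1 and H2-DMa thus had a different order of stages. H2-Ob and H2-DMb2 did not pass in any comparison of set 2.

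Lysosomal genes that passed were higher at day 14 than at day 0 and mostly lower in the tumors. Of 14 other lysosomal proteases, 4 rose at day 14 against day 0 and 0 fell (median 0.80 beside 0.05 over all named genes, with 10.2% of all probes called). They were Lgmn, the asparaginyl endopeptidase legumain (1.41, SE 0.24), cathepsin genes Ctsb (0.70, SE 0.13) and Ctsd (1.61, SE 0.41), and Ctsa, which protects lysosomal sialidase (1.02, SE 0.30). Lgmn and Ctsb passed in 12 of 13 alternative fits, Ctsd in 8 and Ctsa in 4. In tumors against day 14 ganglia 8 of the 14 were lower and 1 higher (median -1.08, with 39.7% of all probes called). Ctsk, a collagen-degrading cathepsin, fell by 2.96 (SE 0.47) and Lgmn fell by 1.72 (SE 0.29), while Ctsc, which activates granule proteases, was the member of the list that rose (1.04, SE 0.29). Against day 0, tumors had 2 of the 14 higher, Ctsc (0.89) and Ctsh (2.48), and 5 lower (37.3% of all probes called). Ctsc and Ctsh are named after their values were seen.

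Among 23 hydrolases and activators other than Gm2a, 1 rose at day 7 and 5 at day 14, with 0 lower, where 1.99% and 10.2% of all probes passed. Acp5, the tartrate-resistant acid phosphatase of macrophages and osteoclasts, rose at day 7 by 1.60 (SE 0.32, adjusted p = 0.0269), a call lost without either day 7 array (adjusted p = 0.118 and 0.232). At day 14 the 5 were Plbd2 (1.39, SE 0.22), Sumf1 (0.82, SE 0.16), Psap (1.30, SE 0.34), Acp5 (1.12, SE 0.32) and Hexa (1.05, SE 0.28). Of 13 alternative fits Plbd2 passed in 13, Sumf1 in 11, Acp5 in 8, Psap in 6 and Hexa in 5. Hexa encodes the alpha subunit of the enzyme that Gm2a serves, Psap the precursor of the saposins, and Sumf1 the activator of sulfatases. In tumors against day 14 ganglia 10 were lower and 1 higher, where 39.7% of all probes passed. The gene that was higher was Acp5, by 4.57 (SE 0.38, adjusted p = 2.43e-06), and it stood 5.70 above day 0.

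Membrane, acidification and sorting genes had 3 of 27 higher at day 14 and 0 lower, a share near the 10.2% of all probes called. They were subunits of the proton pump, Atp6v0b (0.68, SE 0.12), Atp6v0c (0.72, SE 0.21) and Atp6v1e1 (1.05, SE 0.20). In tumors against day 14 ganglia 13 were lower and 1 higher (39.7% of all probes called), with Atp6v0b at -1.83 (SE 0.15) and Ostm1, the partner of the chloride transporter of lysosomes, at -1.93 (SE 0.30). Summed levels of the 27 were 3324050 to 3826707 at day 0, 4980858 to 5408209 at day 14 and 2389372 to 2567956 in the tumors. The counts at day 14 depended on single arrays, with 1 protease and 1 hydrolase passing without either day 14 array, and 2 or 0 membrane genes without the first or the second. Glial genes rose in the same arrays, and their part was not tested.

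**Figure D3:**
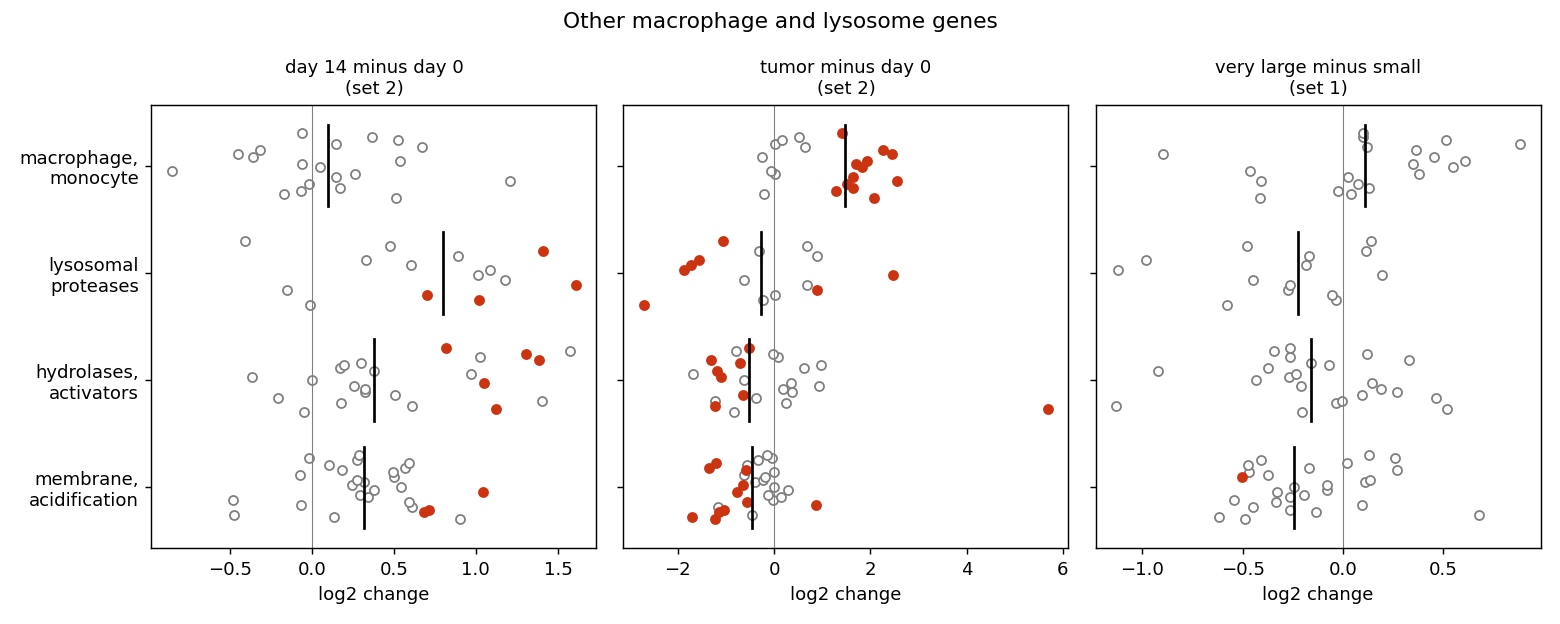
Log2 change of each measured gene of 4 lists (x axis), with filled points for adjusted p under 0.05 in limma and black lines at list medians. Macrophage genes lie to the right in tumors against day 0 (12 of 20 filled), lysosomal genes lie to the right at day 14, and 1 point is filled in very large against small tumors.

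Chemokines and growth factors of macrophages numbered 9, and 5 of them were higher in set 2 tumors than at day 0, where 37.3% of all probes passed. Cxcl1, a neutrophil chemokine, rose by 4.60 (SE 0.43, adjusted p = 4.83e-06), Cxcl10, an interferon-induced chemokine, by 2.71 (SE 0.36, adjusted p = 8.35e-05) and the monocyte chemokine Ccl2 by 1.91 (SE 0.26, adjusted p = 0.000113). Ccl7 and Ccl4 rose by 1.86 and 2.45. In day 14 against day 0 ganglia 2 of the 9 were higher and 0 lower, where 10.2% of all probes passed. They were Il34 and Cxcl10, whose change was 1.74 to 2.24 over 13 alternative fits, of which 11 passed. Il34, a ligand of the macrophage growth factor receptor, rose at day 14 by 2.01 (SE 0.47, adjusted p = 0.0192, past in 8 of 12 alternative fits) and was lower in tumors than at day 14 (change -2.63, SE 0.56, adjusted p = 0.00256).

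In set 1 the question was whether the members change as tumors grow. Retnla read lower in heavier tumors, Gm2a read slightly lower, and Lyz2 and Ctss overlapped across all classes. Which values led to the choice of members is not recorded, so the set 1 levels and changes of the members are also a description with no test, and each SE is from the limma fit.

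Retnla ran from 1097 to 15674 (median 5620) in small tumors and from 1131 to 5371 (median 1393) in medium ones. Large tumors had 452 to 2821 (median 1848) and very large ones 280 to 2488 (median 1856). Its highest 3 readings were all small tumors, but small replicate 5, at 1097, lay below all medium tumors, so the classes overlapped. Log2 levels were 12.25 ± 1.33 in small, 10.90 ± 0.95 in medium, 10.60 ± 0.95 in large and 10.31 ± 1.21 in very large tumors (SD, n = 6 each). The change against small tumors was -1.35 in medium, -1.65 in large and -1.94 in very large ones (SE 0.57 each). Its slope was -1.54 per 10-fold weight (SE 0.34), and -1.75 to -1.33 without any single one of the 24 tumors. Leaving out 1 tumor moved the very large class over -2.37 to -1.51. Among the 18 tumors above the small class the slope was -1.27 (SE 0.61), an alternative chosen after the data were seen.

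Fat, muscle and glial genes were also lower in very large than in small tumors, as were most fibroblast genes that passed. In very large against small tumors 4 of 8 glial genes were lower and 0 higher in limma. Of 9 fibroblast genes 5 were lower and 1 higher, where 4.69% of all probes passed. The 9 adipocyte genes summed to 202006 to 2975862 in small tumors (median 1319895) and to 168053 to 440362 in very large ones (median 257913). Their medians were 284596 in medium and 156215 in large tumors. The 8 muscle genes summed to 28127 to 4060012 in small (median 1979878) and 13324 to 1104966 in very large tumors (median 40079). Their medians were 14495 in medium and 16465 in large tumors. Fat and muscle medians thus dropped after the small class and did not keep falling with each larger class. With the mean levels of both lists as covariates the Retnla slope was -0.44, and the very large class stood 0.30 above the small one. Because 5 small tumors stood apart in the adipocyte mean, a correlation over all 24 would join separate clusters, and it is given within classes of 6 as a description. There the r of Retnla with the adipocyte mean was 0.96 in small, 0.60 in medium, 0.10 in large and 0.89 in very large tumors. Age at death also rose with size, and with it as a covariate the very large class differed by -2.70. The part of fat in the Retnla values was not tested beyond these fits.

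Gm2a ran from 4821 to 6695 (median 6299) in small, 3845 to 5667 (median 5195) in medium, 3113 to 6653 (median 4850) in large and 3362 to 5245 (median 4477) in very large tumors. All very large tumors but 1 lay below all small ones. The change was -0.50 (SE 0.17) in the very large class and -0.31 per 10-fold weight (SE 0.11). With arrays centred on their medians these were -0.77 and -0.49.

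Lyz2 ran from 363075 to 585978 (median 457889) in small tumors and from 319892 to 771207 (median 454351) in very large ones. Medium and large classes had medians of 434747 and 496557, and all classes overlapped. The very large class differed by 0.12 (SE 0.23), and its sign turned with arrays centred or not normalized. Ctss had medians of 51926, 58370, 46303 and 54883 from small to very large and ranges that overlapped. Its difference between very large and small tumors was 0.10 (SE 0.20), which also changed sign with scaling.

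**Figure D4:**
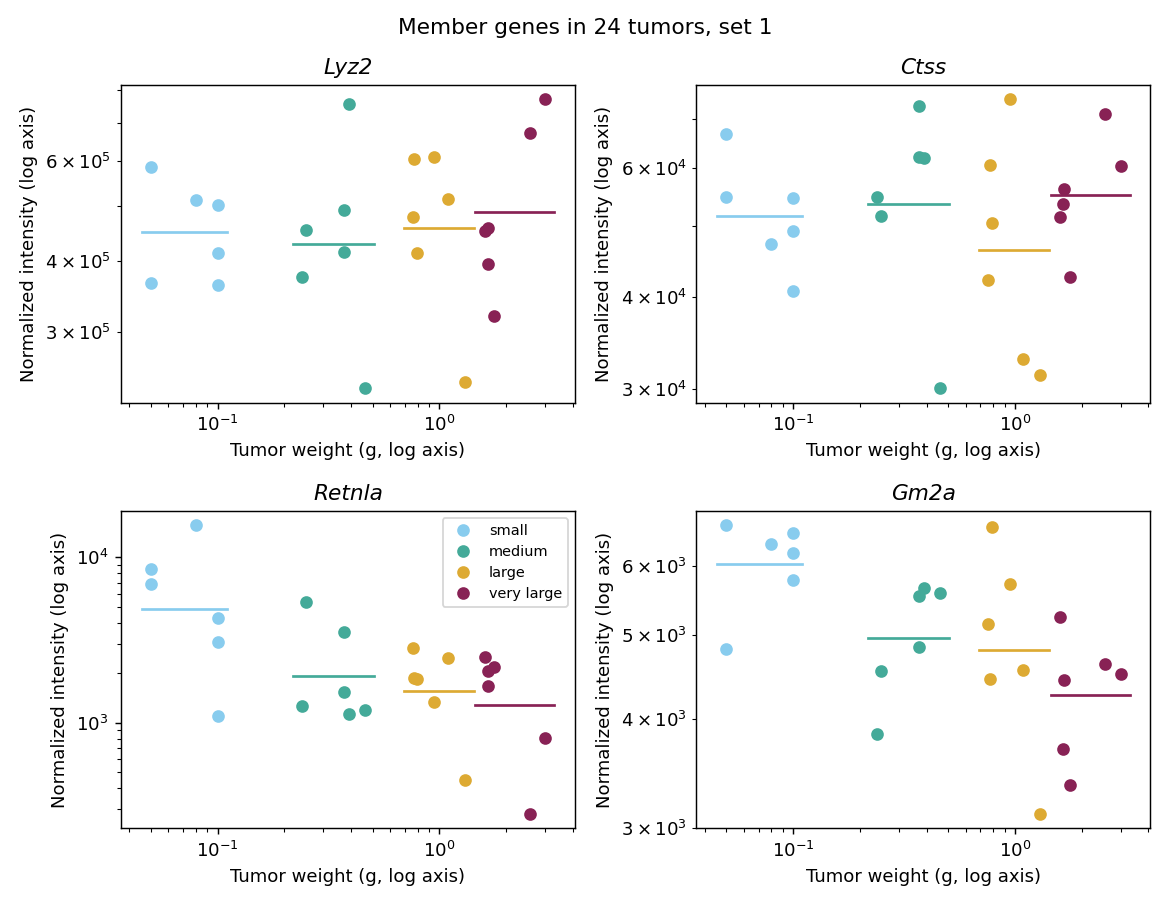
Normalized intensity (y axis, log scale) of each member against tumor weight (x axis, log scale) in the 24 tumors of set 1, coloured by class, with lines at class means of log2 values. Retnla has a median of 5620 in small and 1856 in very large tumors, and Lyz2 and Ctss overlap throughout.

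Among tumors the relation between members differed by pair, by class and with normalization. Of 6 pairs, Lyz2 and Ctss had the highest r over 24 tumors, 0.584, with rho = 0.461. Like the levels, these values are a description with no test. Without the 2 tumors farthest from the median of Lyz2, medium replicate 3 and large replicate 3, r was 0.291, so the value over all 24 rests largely on them. Within classes, of which the small and very large hold neither, r was -0.42 in small, 0.74 in medium, 0.70 in large and 0.86 in very large tumors, with n = 6 each. The other 5 pairs had r from -0.06 to 0.38 over all 24, and within classes some took opposite signs. Lyz2 and Retnla had r = 0.75 in large and -0.79 in very large tumors. Ctss and Gm2a had -0.79 in small and 0.61 in large tumors. Without normalization the 6 pairs had r from 0.37 to 0.87 over the 24 tumors.

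Over 24 tumors the r of Ctss with the mean of 20 macrophage genes was 0.730 and rho was 0.436. It was 0.536 without the 2 tumors of most extreme macrophage mean, and 3 tumors, 1 medium and 2 large, stood low in both. Within classes of 6 it was 0.31 in small, 0.90 in medium, 0.92 in large and -0.49 in very large tumors, so the relation did not hold within every class. Lyz2 with the same mean had r = 0.441. Relations of members with list means were added after the data were seen and are a description with no test.

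**Figure D5:**
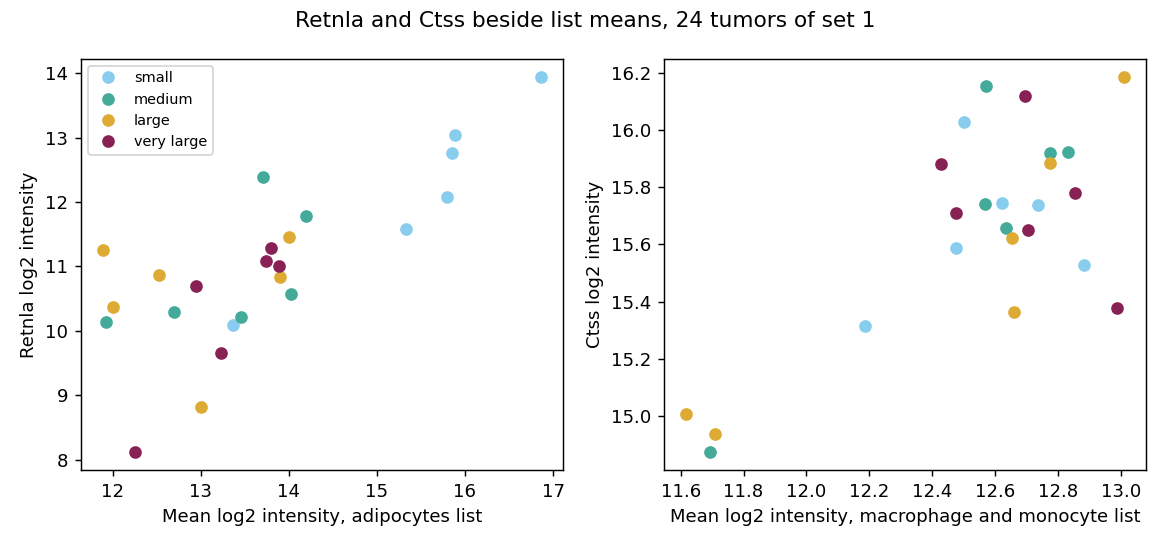
Log2 level of Retnla against the adipocyte mean and of Ctss against the macrophage mean (x axes, mean log2 intensity) in the 24 tumors of set 1, coloured by class. In the first panel 5 small tumors stand to the right, and in the second 3 tumors stand low on both axes.

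The genes of most similar pattern over the 24 tumors were, for Lyz2, Ctsb (r = 0.906), Grn (0.752), which encodes the lysosomal protein progranulin, and Slc15a3 (0.736), a lysosomal peptide transporter. For Ctss they were Apobec1 (0.860), Cyth4 (0.821) and C1qa (0.818). For Retnla they were Car3 (0.845), a carbonic anhydrase of fat and muscle, Crat (0.805) and Mgst1 (0.800), and for Gm2a Htra1 (0.810), Pttg1ip (0.742) and Gcdh (0.712). Over the 11 arrays of set 2 the closest were Umps (0.992), Nolc1 (0.990) and Ebna1bp2 (0.990) for Lyz2, Rab12 (0.988), Rpl30 (0.977) and Bclaf1 (0.977) for Ctss, Psrc1 (0.963), Aarsd1 (0.949) and Ccdc88c (0.944) for Retnla, and Sstr2 (0.921), Bmp4 (0.894) and Mgll (0.860) for Gm2a. No gene stood among the first 3 of a member in both sets. In set 2 the value of Ctsb with Lyz2 was -0.10, and that of C1qa with Ctss was 0.88. These are descriptions over arrays that share groups.

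Few genes of the macrophage and lysosome lists passed with tumor size. Over all probes 0.961% passed in medium, 2.31% in large and 4.69% in very large against small tumors, 2.25% over the 4 classes and 5.59% in the trend with weight. Of the 20 macrophage genes 0 passed in any of these comparisons (2 had an unadjusted p under 0.05 in very large against small tumors), with a median change of 0.11 in very large against small tumors beside 0.00 over all named genes, and 0 passed in any of 19 alternative fits of that comparison, each with limma. Summed levels of the 20 were 251538 to 360169 in small and 264914 to 430999 in very large tumors. Of 14 proteases and 23 hydrolases 0 passed (2 and 4 at an unadjusted p under 0.05, medians -0.22 and -0.16), and of 27 membrane genes Lamp1, a major lysosomal membrane glycoprotein, fell by 0.50 (SE 0.14, adjusted p = 0.0385). Lamp1 passed in 7 of 19 alternative fits and was lost with life span (adjusted p = 0.373) or fat and muscle levels (adjusted p = 0.628) as covariates, and without any of small replicates 4 to 6 or very large replicates 3 to 6. The count of membrane genes that were lower was 7 without small replicate 1. Scarb2, the receptor that carries glucocerebrosidase to lysosomes, fell by 0.35 per 10-fold weight (SE 0.10, adjusted p = 0.0358) and passed in 18 of 32 alternative fits. Of the 9 chemokines and growth factors 2 were lower in large and 2 in very large against small tumors. In the trend 3 were lower, and 0 were higher in any comparison. Cxcl12 was lower in large tumors and in the trend, and passed in 7 of 19 and 17 of 32 alternative fits. In very large tumors Cxcl10 fell by 3.11 (SE 0.52, adjusted p = 0.000793) and Ccl2 by 1.66 (SE 0.47, adjusted p = 0.0365). Neither passed with life span as a covariate (adjusted p = 0.0549 for Cxcl10 and 0.231 for Ccl2) or with fat and muscle levels (adjusted p = 0.152 and 0.744), and 0 of the 9 genes passed in those fits. Ccl2 passed in 9 of 19 alternative fits and was lost without any of small replicates 2 to 4 or very large replicates 2 and 4 to 6. Csf3r, the granulocyte colony factor receptor of neutrophils, rose by 0.60 (SE 0.12, adjusted p = 0.00495) but did not pass without normalization, with centred arrays or with either covariate fit (adjusted p from 0.131 to 0.893), while Mpo and S100a9, made by neutrophils, had changes of 0.86 and 1.56 that did not pass.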

How the data were processed

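The members and gene lists were chosen with earlier results of these data known. The ganglia table holds intensities that the authors quantile normalized over 11 arrays, per the deposited readme, for 12688 probes. The series table holds deposited intensities of 35 arrays that differ in median. Its background correction and imaging software were not given in the sources used here. Old symbols were updated through RefSeq (5013 current, 3071 updated, 270 kept, 150 with several genes, 4184 with none), and a gene with several probes was read from its brightest.

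Set 1 was quantile normalized here, since the deposited values were not scaled between arrays, and 16 of 33012 probes with missing values were left out. A floor at the 1st percentile, 168.1 for set 1 and 878.9 for set 2, was applied before log2. limma 3.58.1 in R 4.3.3 (lmFit, eBayes with an intensity trend) fitted each set alone, with Benjamini-Hochberg adjustment over all its probes and a threshold of 0.05. The trend used log10 tumor weight. Correlations are Pearson's r and Spearman's rho (scipy 1.17.1). They are given without p-values, because the members were chosen with earlier results known.

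Named genes were, per list, up to 4 with the smallest F-test p in each set and all past the threshold where 5 or fewer passed, the 3 genes most correlated with each member in each set, and Mycn, Th and Dbh. Some genes chosen by the rule are not reported here. Alternatives were other scalings, floors and filters, covariates, day 0 subsets and left-out arrays, and their use on the lists and single list genes was added after the data were seen.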

Additional observations from a re-analysis of the deposited data

How the results depend on the processing

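Counts of probes past the threshold in medium, large and very large against small tumors, over all classes and in the trend were 317, 761, 1549, 742 and 1843. Without normalization they were 114, 176, 552, 271 and 828, with 25 higher and 527 lower in very large tumors (742 and 807 as reported) and 19 higher and 809 lower in the trend (866 and 977), while the median of all probes shifted by -0.26 and -0.17. With arrays centred on their medians the large class had 500 (110 higher, 390 lower, against 313 and 448), and the splits were 73 and 206 in medium, 223 and 913 in very large tumors and 244 and 1073 in the trend. Without an intensity trend the first 4 counts were 173, 393, 964 and 403. With life span as a covariate they were 174, 273, 272, 152 and, for the trend, 247, and with adipocyte and muscle levels 2, 8, 13, 2 and 1. Using only tumors above the small class the trend had 0 in limma (1957 at an unadjusted p under 0.05). Day 7 against day 0 had 252 probes and day 14 had 1293, against 137 and 807 in the series table normalized here, 165 for day 7 without an intensity trend, and 3142 and 3504 with 3 of the day 0 specimens. Leaving out 1 array gave 137 to 403 for medium, 372 to 806 for large and 827 to 2017 for very large tumors, 311 to 868 over classes and 801 to 2142 for the trend. In set 2 it gave 10 to 821 for day 7, 143 to 2020 for day 14, 2882 to 4942 for tumors against day 0 (4734), 3315 to 3506 against day 14 (5043) and 3213 to 6042 over stages (5319).

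Among members the sign of Lyz2 turned in large and very large tumors and the trend without normalization (-0.22, -0.27, -0.22), with centred arrays (-0.12, -0.0039, -0.0306) and with tissue covariates (-0.42, -0.26, -0.0535), and in large and very large tumors with life span (-0.0854, -0.0057). Ctss turned in very large tumors without normalization (-0.35), with centred arrays (-0.0832) and with life span (-0.13), in medium ones with life span (-0.10) and in the trend with tissue covariates (0.0041). Retnla turned with tissue covariates in medium, large and very large tumors (0.9985, 1.06, 0.30). Gm2a in tumors against day 0 turned with the series table (0.30). Leaving out 1 tumor moved Lyz2 over -0.23 to 0.10 in medium, -0.0557 to 0.21 in large and -0.0136 to 0.24 in very large tumors and -0.0118 to 0.16 in the trend, and Ctss over -0.0331 to 0.22 in medium tumors and -0.0877 to 0.0286 in the trend. The cause of these turns was not tested. No paired analysis was possible because no groups compared share a specimen, and the 2 specimens arrayed in both sets enter no comparison between sets. Groups of 2 arrays limit set 2, and a probe that a filter on dim probes removed has no value there.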
